A study of Mus musculus with 9 samples.

Results

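Oxidised low-density lipoprotein (oxLDL) was compared with native low-density lipoprotein (LDL) in mouse valvular interstitial cells (VICs) kept in culture, a fibroblast-like cell type that fills heart valve leaflets. The comparison used 6 of the 9 libraries of the study, 3 given LDL and 3 given oxLDL, and the other 3, given buffer (Control), entered the fit and serve as a reference level. Aortic and mitral valves of the mouse strain C57BL/6J were the source of all cells, with no transgene or deletion named, and the cells grew in DMEM with 10% foetal bovine serum, insulin at 5 ug/mL, EGF at 2 ng/mL and basic FGF at 0.5 ng/mL. Both lipoproteins were given at 50 ug/mL for 24 h at 37 °C and 5% CO2, and the Control cells, called untreated in one label, received an equal amount of buffer. The age and number of the mice, the passage of the cells, the source of the lipoproteins and the degree of oxidation are not given in the sources used here. Whether the 3 samples per treatment were separate cultures or animals is not stated by the labels, so the p-values speak only of the spread among these libraries, part of which may be technical.

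LDL particles deliver cholesterol to cells, and the cholesterol set free from them in lysosomes holds the transcription factor SREBP2 in the endoplasmic reticulum, which keeps the genes of cholesterol synthesis low. Oxidation alters both the lipids and the apolipoprotein of the particle, and scavenger receptors then bind it. Fatty acids carried by lipoproteins are ligands of PPARs, nuclear receptors that drive genes of fatty acid oxidation and lipid storage. Lipoproteins are found in diseased aortic valves, where VICs can take on contractile or bone-like states.

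Levels are given as TPM, the share of a library's transcripts that a gene holds after correction for its length, listed in the order of replicates 1, 2 and 3. Libraries with the same replicate number formed a pair, and log2 differences, oxLDL minus LDL, were taken of log2(TPM + 1), a scale that makes the change of low genes look smaller. Tests are limma's over the 13495 of 51810 genes whose TPM averaged 1 or more over all 9 libraries, with the replicate number as a block, Benjamini-Hochberg adjustment and an adjusted p under 0.05. "Rose" and "fell" are used for genes that passed, and they place oxLDL relative to LDL and not to Control. Means are given ± SD over n = 3 libraries.

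Of the 13495 genes tested, 35 differed between oxLDL and LDL (0.259%), of which 16 rose (0.119%) and 19 fell (0.141%). The genes that rose included the sterol regulator Srebf2, 5 enzymes of cholesterol synthesis and the chemokines Ccl2 and Ccl20. The genes that fell included 6 genes of fatty acid oxidation and lipid storage, 3 genes of retinoic acid metabolism and response, and the matrix proteoglycan gene Ogn. All 35 lay in 1 direction in all 3 pairs. In 31 of them the 3 oxLDL and the 3 LDL libraries did not overlap, which held for 8.31% of all genes tested. The 35 were chosen by a test on these same libraries, so neither count is separate support. Snora61 and AC165157.5, listed at 0 in every library outside oxLDL, are among the 31. Leaving aside Snora61 and the clone-named models, the log2 size ran from 0.40 to 1.45 over 14 genes that rose and from 0.39 to 1.78 over 18 that fell. Over all genes tested the median difference was 0.0009, and 1148 genes (8.51%) had an unadjusted p under 0.05. With 0.259% of all genes called, 0 calls in a gene list below is close to that share and no result about the list.

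**Figure D1:**
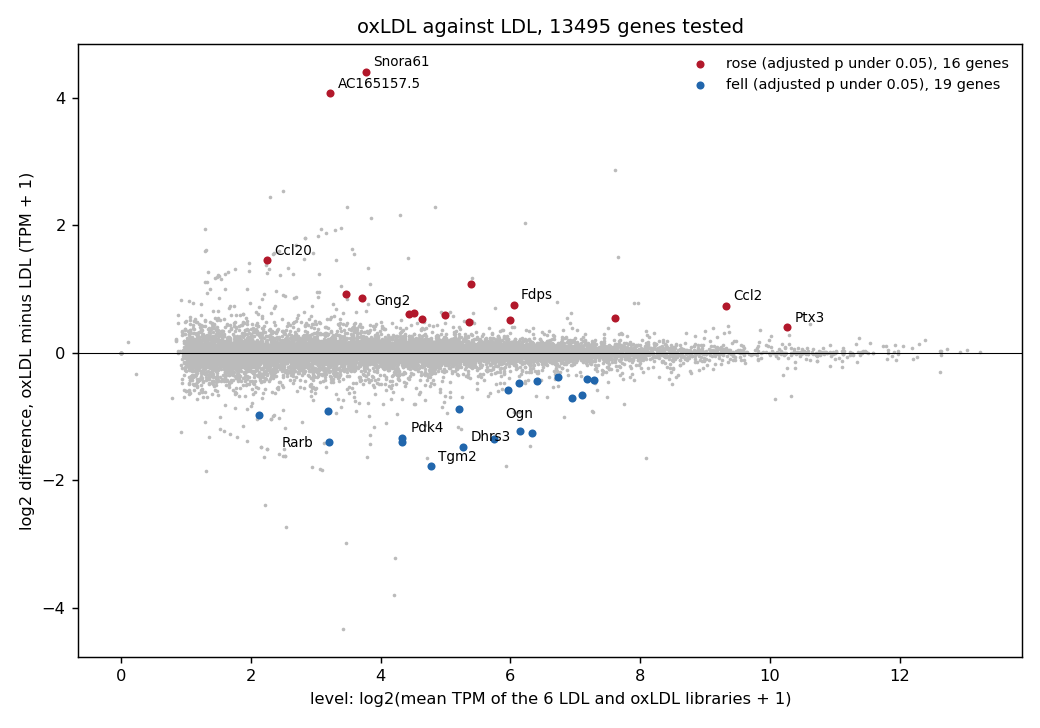
Each point is 1 of the 13495 genes tested, with its level (log2 of the mean TPM of the 6 libraries plus 1) on the x axis and its log2 difference, oxLDL minus LDL, on the y axis. The 16 genes that rose are red and the 19 that fell are blue, with Snora61 and AC165157.5 above 4 and all other called genes between -1.78 and 1.45.

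The number of calls depended on single libraries. Of the 35, 4 genes were called in all 9 fits that left out 1 library, among them Ogn and Pdk4. AC165157.5 is counted in the 4, but it was listed at 0 in every library outside oxLDL. It reached the minimum mean TPM through the oxLDL libraries alone, so its calls are no measure of stability. The counts of rises and falls were 3 and 3 without Control 1, 5 and 4 without Control 2, 3 and 10 without LDL 1, 2 and 3 without LDL 2, 2 and 2 without LDL 3, 3 and 3 without oxLDL 1 and 4 and 4 without oxLDL 2. They were 13 and 21 without Control 3 and 16 and 27 without oxLDL 3. Stbd1 was called in 6 of these 9 fits and Gng2 in 4, while Ccl20, Msmo1, Nbl1, Ptx3, Sdc2 and Sqle were called in 0. Tgm2, Acaa2 and Atp1b1 were called in 3, and Srebf2, Plin2, Ech1, Dhrs3, Mbd1, Spon2, Cemip and Rab3ip in 2. Fdps, Cyp51, Rarb, Ccl2, Acadl, Etfbkmt, Ndufa6 and Tmem119 were called in 1. Without the replicate block 14 genes passed (0.104%), 5 that rose and 9 that fell, all of them among the 35, and the adjusted p without the block is given below where a call was lost.

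Srebf2, which encodes SREBP2, was at 25.8, 25.1 and 22.2 TPM with LDL and 41.35, 35.6 and 34.5 TPM with oxLDL, with no overlap of the groups, and rose by 0.59 (limma adjusted p = 0.018, 0.20 without the block). Its mean was 1.52-fold higher, 37.1 ± 3.68 against 24.4 ± 1.89 TPM, and the Control libraries were at 54.5, 45.9 and 42.8 TPM, above all libraries of either lipoprotein. In the same fit Srebf2 differed from Control by -0.94 with LDL (limma adjusted p = 0.00085) and by -0.35 with oxLDL (limma adjusted p = 0.12). Over all genes, LDL against Control gave 115 calls (0.852%) and oxLDL against Control 17 (0.126%). Each of these contrasts shares libraries with the other 2, so they are values side by side and not separate evidence. Insig1, named after its values were seen, encodes a protein that retains the SREBP2 complex in the endoplasmic reticulum and is itself an SREBP2 target. It was at 21.9, 19.8 and 18.35 TPM with LDL and 37.0, 23.9 and 25.6 TPM with oxLDL. The groups did not overlap, but its difference of 0.48 did not pass (limma adjusted p = 0.25). Of the 15 tested members of the sterol sensing and LDL uptake list 2 rose, Srebf2 among them, and the median difference was 0.02.

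Cholesterol synthesis had the highest median of the 34 lists with at least 3 tested members: 0.41 over all 21 members, which were all tested, against 0.0009 over all genes. Of the 21, 5 rose and 0 fell, and 17 were higher in all 3 pairs, as were 16.6% of all genes tested. Side by side in the same fit, the medians against Control were -0.998 with LDL and -0.68 with oxLDL.

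Fdps, the farnesyl diphosphate synthase, was at 57.0, 45.35 and 41.3 TPM with LDL and 109, 71.2 and 67.3 TPM with oxLDL. Within every pair oxLDL was the higher, the groups did not overlap, and the level was highest in replicate 1 of both treatments. It rose by 0.75 (95% interval 0.56 to 0.94, limma adjusted p = 0.027), from a mean of 47.9 ± 8.12 to 82.5 ± 23.1 TPM, and its Control mean was 164 ± 48.1 TPM. Cyp51, the lanosterol demethylase, was at 19.7, 16.5 and 14.7 TPM with LDL and 34.6, 24.1 and 21.9 TPM with oxLDL and rose by 0.61 (limma adjusted p = 0.040). Sqle, the squalene epoxidase, was at 16.8, 16.7 and 14.9 TPM with LDL and 29.7, 24.4 and 21.65 TPM with oxLDL and rose by 0.61 (limma adjusted p = 0.044). For both enzymes each oxLDL library lay above all LDL libraries. Msmo1, the sterol methyl oxidase, was at 24.3, 16.4 and 17.1 TPM with LDL and 38.4, 22.9 and 24.4 TPM with oxLDL and rose by 0.53 (limma adjusted p = 0.045). In Msmo1 the groups overlapped, since LDL replicate 1 lay above oxLDL replicate 2 although oxLDL was the higher in each pair. Without the replicate block none of these 4 enzymes passed, with limma adjusted p of 0.83 for Fdps, 0.93 for Cyp51, 0.49 for Sqle and 1.0 for Msmo1.

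Hmgcs1, the cytosolic HMG-CoA synthase at the head of the pathway, was at 23.75, 21.4 and 20.3 TPM with LDL and 33.5, 28.9 and 27.3 TPM with oxLDL, with no overlap. Its difference of 0.43 did not pass (limma adjusted p = 0.10). Idi1, the isopentenyl diphosphate isomerase, named after its values were seen, was at 10.6, 8.49 and 8.67 TPM with LDL and 21.85, 15.4 and 12.7 TPM with oxLDL, a difference of 0.76 just outside the threshold (limma adjusted p = 0.058). The promoter of Hmgcs1 is shown because it was the only 1 among the 16 cholesterol synthesis genes with a promoter entry to hold the sterol regulatory element TCACNCCAC, the sequence that SREBP proteins bind. The motif, searched on both strands in the 300 bases from 250 before to 50 after the gene start, lay in 408 of 32851 RefSeq promoters (1.24%) and in 0 of the 20 called genes with an entry. The sequence is chr13:119690101-119690400, + strand, from RefSeq (GRCm38.p6), with the element, which starts 137 bases before the gene start, in capitals.
Hmgcs1: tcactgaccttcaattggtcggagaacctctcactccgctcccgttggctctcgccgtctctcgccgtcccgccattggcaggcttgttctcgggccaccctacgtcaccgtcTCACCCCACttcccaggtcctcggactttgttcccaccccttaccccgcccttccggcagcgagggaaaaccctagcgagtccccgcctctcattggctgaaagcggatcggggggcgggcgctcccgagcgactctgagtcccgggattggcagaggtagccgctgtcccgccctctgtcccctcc

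Fatty acid synthesis and desaturation, whose genes SREBP proteins also drive, had 0 called among 15 tested members. Of the 15, 11 were higher in all 3 pairs, as were 16.6% of all genes tested, and the median was 0.17. Scd2, a stearoyl-CoA desaturase, was at 82.35, 71.4 and 71.1 TPM with LDL and 172, 114 and 114 TPM with oxLDL, with separate groups and a difference of 0.80 (limma adjusted p = 0.060). Fads2, the delta-6 desaturase, was at 33.1, 31.3 and 28.9 TPM with LDL and 57.7, 40.5 and 36.6 TPM with oxLDL, a difference of 0.49 (limma adjusted p = 0.19). In both genes every oxLDL library was above every LDL library, with the widest gap in pair 1. Of 13 tested members of the LXR and cholesterol efflux list 0 were called, with a median of -0.10. Abca1, the cholesterol exporter, was at 23.3, 20.2 and 21.5 TPM with LDL and 27.2, 20.15 and 21 TPM with oxLDL. The Abca1 groups overlapped (difference 0.06, 95% interval -0.13 to 0.25, limma adjusted p = 0.92).

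**Figure D2:**
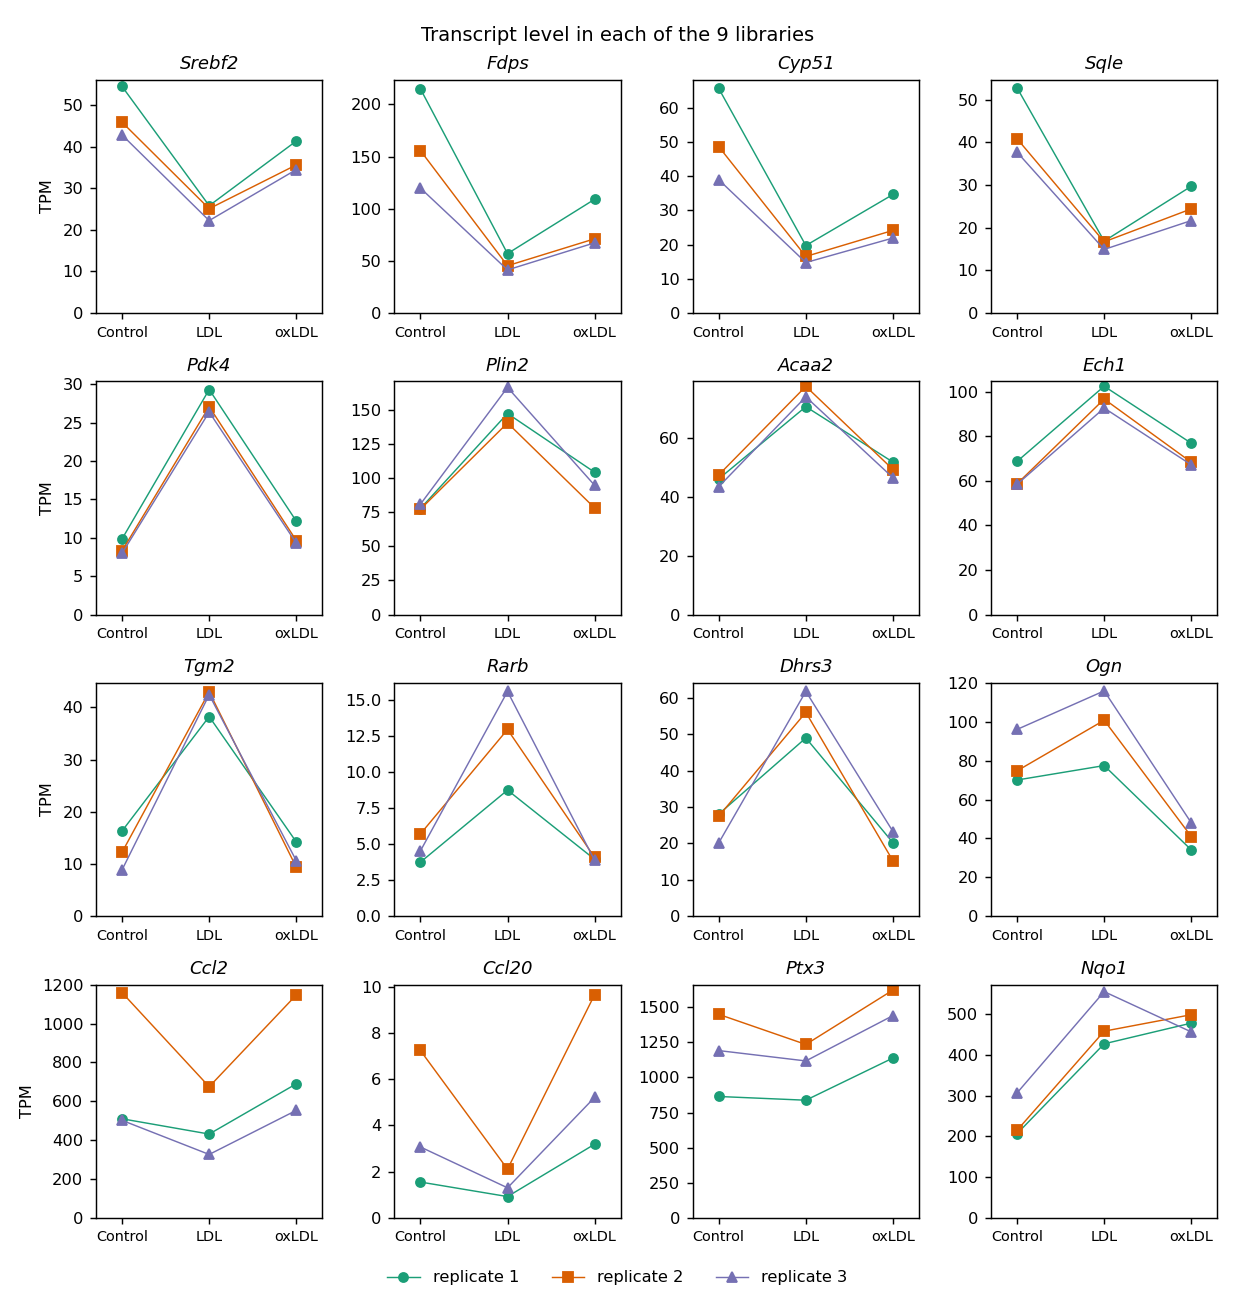
TPM of 16 genes in each of the 9 libraries, with treatment on the x axis, lines joining libraries of the same replicate number and each y axis starting at 0. The sterol genes of the top row are lowest with LDL, the genes of the second row and Tgm2, Rarb, Dhrs3 and Ogn are highest with LDL, and Nqo1 overlaps between LDL and oxLDL at 427 to 555 and 456 to 498 TPM.

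Genes of fatty acid oxidation and lipid storage that PPARs drive were lower with oxLDL where they passed. Of 38 listed genes 32 were tested, 6 fell and 0 rose, 23 were lower in all 3 pairs and 1 was higher in all 3, where 14.9% and 16.6% of all genes tested were lower and higher. The median difference was -0.22, and side by side the medians against Control were 0.25 with LDL and 0.09 with oxLDL. Pdk4, the kinase that shuts off pyruvate dehydrogenase when fatty acids are burned (chromosome 6, 5483351 to 5496309, - strand), was at 29.3, 27.1 and 26.4 TPM with LDL and 12.2, 9.65 and 9.31 TPM with oxLDL. The 3 LDL libraries lay close together and far above all oxLDL libraries. Pdk4 fell by 1.34 (95% interval -1.50 to -1.18, limma adjusted p = 0.00072), a 2.66-fold lower mean, and the Control libraries were at 9.86, 8.31 and 7.99 TPM. The fitted difference of oxLDL from Control was 0.22 (limma adjusted p = 0.40).

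Plin2, the lipid droplet coat protein, was at 147, 140.4 and 166 TPM with LDL and 104, 78.1 and 94.7 TPM with oxLDL and fell by 0.71 (limma adjusted p = 0.029, 0.072 without the block). Its Control libraries held 77.7, 77.1 and 80.8 TPM, so oxLDL replicate 2 stood within the Control range and the other two oxLDL libraries above it. Acaa2, the thiolase of the last step of mitochondrial oxidation, was at 70.6, 77.5 and 73.95 TPM with LDL and 51.8, 49.3 and 46.5 TPM with oxLDL and fell by 0.58 (limma adjusted p = 0.018). Ech1, an isomerase for unsaturated fatty acids, was at 102, 96.7 and 92.65 TPM with LDL and 76.9, 68.3 and 67.2 TPM with oxLDL and fell by 0.45 (limma adjusted p = 0.020, 0.22 without the block). Acadl, the long-chain acyl-CoA dehydrogenase, was at 158, 179.8 and 157 TPM with LDL and 119, 129.7 and 122 TPM with oxLDL and fell by 0.41 (limma adjusted p = 0.040, 0.31 without the block). In Pdk4 and these 4 genes every LDL library lay above every oxLDL library.

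Cpt1a, which loads fatty acids for entry into mitochondria, was at 91.2, 99.5 and 98.5 TPM with LDL and 68.4, 67.0 and 76.4 TPM with oxLDL, and its difference of -0.45 did not pass (limma adjusted p = 0.067). Angptl4, a secreted inhibitor of lipoprotein lipase and a strong PPAR target, was at 169.9, 235 and 195 TPM with LDL, 100.4, 116 and 99.05 TPM with oxLDL and 32.5, 75.7 and 31.2 TPM in Control. Its LDL and oxLDL groups did not overlap, but its difference of -0.91 did not pass (limma adjusted p = 0.19). Lipe, the hormone-sensitive lipase and 1 of 2 tested adipocyte markers, was at 14.25, 14.8 and 13.6 TPM with LDL and 8.10, 7.71 and 8.23 TPM with oxLDL, a difference of -0.76 (limma adjusted p = 0.096). Among the PPAR receptor genes, Pparg was low, at 2.64, 2.21 and 4.63 TPM with LDL and 1.96, 1.43 and 1.35 TPM with oxLDL (difference -0.65, limma adjusted p = 0.43). Ppard, named after its values were seen, was at 25.95, 30.8 and 28.3 TPM with LDL and 27.3, 28.6 and 30.7 TPM with oxLDL. The Ppard groups overlapped, and Ppara averaged under 1 TPM and was not tested. All 9 tested PPAR receptors and coactivators were uncalled, with a median of 0.01. The PPAR element, searched as GGTCA, any base and then AGGTCA, lay on either strand in 25 of the 32851 promoters (0.0761%) and in 0 of the 20 called genes with an entry.

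Etfbkmt, a methyltransferase that acts on the electron transfer flavoprotein of fatty acid oxidation, was outside the list. It was at 9.79, 10.9 and 11.9 TPM with LDL, 5.58, 4.36 and 6.05 TPM with oxLDL and 6.05, 5.51 and 5.26 TPM in Control. LDL and oxLDL did not overlap, and it fell by 0.91 (limma adjusted p = 0.044). Ndufa6, an accessory subunit of respiratory complex I, named after its values were seen, was at 191, 171 and 171 TPM with LDL and 150.0, 119 and 128 TPM with oxLDL and fell by 0.42 (limma adjusted p = 0.029, 0.44 without the block). Its groups did not overlap, and Control was at 147, 131 and 129 TPM. The 33 other nuclear respiratory chain subunits that were listed and tested had 0 calls and a median of -0.03.

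Retinoic acid, made from vitamin A, acts through nuclear receptors that raise the genes of its own receptor and of its breakdown. Of 25 listed genes of this pathway 20 were tested, 3 fell and 0 rose, 10 were lower in all 3 pairs, and the median was -0.10. Over all genes tested 0.141% fell and 14.9% were lower in all 3 pairs. Tgm2, a protein-crosslinking transglutaminase induced by retinoic acid, was at 38.2, 43.0 and 42.4 TPM with LDL and 14.2, 9.37 and 10.6 TPM with oxLDL. It fell by 1.78, the widest fall among the called genes (95% interval -2.20 to -1.37, limma adjusted p = 0.018), a 3.61-fold lower mean. The LDL libraries stood apart from both other groups, with Control at 16.3, 12.25 and 8.88 TPM. Rarb, a retinoic acid receptor, was at 8.76, 13.0 and 15.6 TPM with LDL, 3.95, 4.08 and 3.87 TPM with oxLDL and 3.75, 5.71 and 4.53 TPM in Control. Its 3 oxLDL values were nearly alike while the LDL values differed among themselves, and it fell by 1.40 (limma adjusted p = 0.028, 0.051 without the block). Dhrs3, which turns retinaldehyde back into retinol, was at 49.0, 56.05 and 61.8 TPM with LDL and 20.2, 15.2 and 23.3 TPM with oxLDL and fell by 1.47 (limma adjusted p = 0.040). No LDL library of Dhrs3 came near the oxLDL range. Cyp26b1, an enzyme that degrades retinoic acid, was at 52.1, 92.3 and 141 TPM with LDL, 24.9, 26.4 and 23.6 TPM with oxLDL and 27.6, 26.5 and 43.6 TPM in Control. Its difference of -1.78 was of like size to that of Tgm2, but the LDL libraries spread more, and it did not pass (limma adjusted p = 0.058). Cyp26b1 was named after its values were seen.

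The Rarb promoter is shown because Rarb, alone among the 20 called genes with an entry, held a form of the retinoic acid response element. This form was searched as GTTCA, any 5 bases and then AGTTCA. These half-sites are those of the Rarb element itself, and repeats of AGGTCA 5 bases apart were not searched. That only Rarb matched therefore says nothing about the other called genes. This form, searched on both strands, lay in 11 of the 32851 promoters (0.0335%). A match is a description of the letters and not of binding. The sequence is chr14:16575427-16575726, - strand, from RefSeq (GRCm38.p6), 5′ to 3′, with the element, which starts 52 bases before the RefSeq start used for this window, in capitals. That start lies inside Rarb as GENCODE M21 places it (chromosome 14, 16430839 to 16819156, - strand), so the window is at an internal start of the longer gene model.
Rarb: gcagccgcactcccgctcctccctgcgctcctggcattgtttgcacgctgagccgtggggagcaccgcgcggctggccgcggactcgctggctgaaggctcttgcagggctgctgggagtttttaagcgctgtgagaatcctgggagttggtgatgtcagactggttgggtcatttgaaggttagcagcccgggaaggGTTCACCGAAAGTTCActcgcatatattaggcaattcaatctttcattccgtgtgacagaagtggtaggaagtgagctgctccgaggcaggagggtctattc

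**Figure D3:**
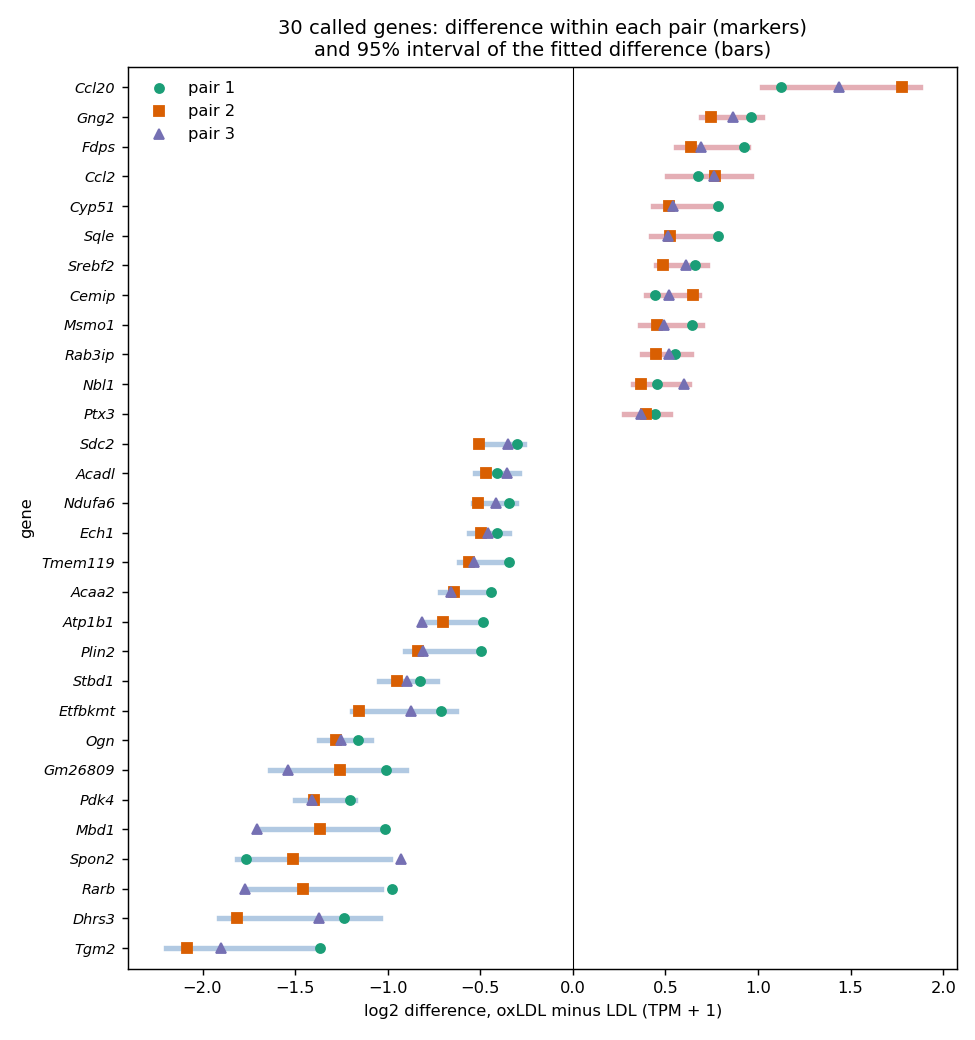
Difference within each pair (markers, 1 per replicate number) and 95% interval of the fitted difference (bars) for 30 of the 35 called genes, without Snora61, AC165157.5 and 3 genes not reported here, on the log2(TPM + 1) scale. All markers of a gene lie on 1 side of 0, and the pairs are closest together in Ogn and Pdk4 among the genes shown whose difference is over 1 in size.

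Chemokines were among the genes that rose, although most tested inflammatory genes did not pass. Ccl2, which attracts monocytes, was at 431, 675 and 326 TPM with LDL and 690.2, 1148 and 553 TPM with oxLDL. The groups overlapped, since replicate 2 was the highest in each treatment, but oxLDL was the higher member of each pair. Ccl2 rose by 0.73 (95% interval 0.51 to 0.96, limma adjusted p = 0.044), and without the block the adjusted p was 1.0. Ccl20, a chemokine for lymphocytes and dendritic cells, was low, at 0.92, 2.11 and 1.3 TPM with LDL and 3.19, 9.67 and 5.22 TPM with oxLDL. Each oxLDL value was above all LDL values, and it rose by 1.45 (limma adjusted p = 0.040, 0.80 without the block). Ptx3, a secreted pattern-recognition protein, named after its values were seen, was at 838, 1235 and 1118 TPM with LDL and 1138, 1623 and 1441 TPM with oxLDL. Its groups overlapped, the rise within pairs was even, and it rose by 0.40 (limma adjusted p = 0.044, 1.0 without the block). In Control these 3 genes were at 510.1, 1159.9 and 502 TPM for Ccl2, 1.55, 7.25 and 3.07 TPM for Ccl20 and 864, 1449.6 and 1191 TPM for Ptx3, with replicate 2 again the highest.

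Of the 29 tested members of the inflammatory and NF-kB list, Ccl2 was the 1 that rose, 0 fell, 13 were higher in all 3 pairs and the median was 0.12. Over all genes tested 0.119% rose and 16.6% were higher in all 3 pairs. Ccl7, which lies beside Ccl2, was named after its values were seen. It was at 134, 286 and 113 TPM with LDL and 203, 467 and 235 TPM with oxLDL, and did not pass (difference 0.78, limma adjusted p = 0.15). Il6 was at 67.8, 98.65 and 42.2 TPM with LDL and 69.45, 69.1 and 55.8 TPM with oxLDL, with full overlap (difference -0.03, limma adjusted p = 0.996). The matrix protease Mmp3 went the other way in its mean, at 1169, 1402 and 1460.1 TPM with LDL and 784, 666 and 1007 TPM with oxLDL, and did not pass (difference -0.73, limma adjusted p = 0.34). Ptgs2, the inducible cyclooxygenase, was at 95.3, 98.9 and 81.9 TPM with LDL and 105, 95.6 and 82.4 TPM with oxLDL, with a 95% interval of the difference from -0.10 to 0.16. Against Control its differences were 0.81 with LDL and 0.84 with oxLDL, side by side. No interferon response gene of 28 tested was called. The median of -0.07 averages pairs that went opposite ways, with pair medians of -0.70, 0.08 and 0.55, and it was -0.33 without oxLDL replicate 3 and 0.27 without oxLDL replicate 1.

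Ogn encodes osteoglycin, a small leucine-rich proteoglycan of connective tissue (chromosome 13, 49608046 to 49624501, + strand). It was at 77.5, 101 and 116 TPM with LDL, 34.1, 41.0 and 48.0 TPM with oxLDL and 70.1, 74.8 and 96.1 TPM in Control. Replicate 1 was the lowest and replicate 3 the highest in each treatment, and the oxLDL libraries lay below all 6 others. Ogn fell by 1.23 (95% interval -1.37 to -1.09, limma adjusted p = 0.00072, 0.065 without the block), a 2.39-fold lower mean. It also differed between oxLDL and Control by -0.95 (limma adjusted p = 0.0032), and LDL differed from Control by 0.28 (limma adjusted p = 0.10). Ogn was the 1 called gene among 39 tested collagens and matrix proteins, whose median was 0.02.

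Spon2, a secreted matrix protein, was at 27.5, 25.9 and 30.4 TPM with LDL and 7.39, 8.43 and 15.5 TPM with oxLDL and fell by 1.40 (limma adjusted p = 0.040, 0.083 without the block). Its oxLDL replicate 3 was higher than the other two oxLDL libraries, but below all LDL libraries. Sdc2, a heparan sulphate proteoglycan of the cell surface, named after its values were seen, was at 104, 128 and 129 TPM with LDL and 83.9, 89.9 and 101 TPM with oxLDL. Its groups were separate by a narrow margin, and it fell by 0.39 (limma adjusted p = 0.049, 0.80 without the block). Cemip, which is needed for the breakdown of hyaluronan, was at 155, 171 and 149.6 TPM with LDL and 211, 269 and 215 TPM with oxLDL and rose by 0.54 (limma adjusted p = 0.029, 0.33 without the block). Each oxLDL library of Cemip lay above all LDL libraries.

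Stbd1, which tethers glycogen to membranes, was at 43.7, 46.5 and 50.6 TPM with LDL and 24.2, 23.6 and 26.7 TPM with oxLDL and fell by 0.89 (limma adjusted p = 0.0065). Its groups lay far apart for their spread, and Control was at 29.3, 27.55 and 27.7 TPM. Atp1b1, the beta subunit of the sodium pump, was at 167, 162 and 171 TPM with LDL and 119, 99.35 and 96.8 TPM with oxLDL. It fell by 0.67 (limma adjusted p = 0.018), with no overlap of the groups. Its Control libraries were at 133, 114 and 122 TPM. Mbd1, a protein that binds methylated CpG sites, was at 57.2, 73.8 and 100.2 TPM with LDL, 27.8, 28.0 and 30.0 TPM with oxLDL and 29.0, 30.4 and 28.0 TPM in Control. The oxLDL and Control libraries were all close to one level while the LDL libraries lay above it and spread widely, and Mbd1 fell by 1.36 (limma adjusted p = 0.027). Tmem119, a membrane protein of bone-forming cells and microglia, named after its values were seen, was at 75.2, 79.9 and 85.7 TPM with LDL and 58.9, 53.8 and 58.9 TPM with oxLDL. Without overlap between the groups it fell by 0.48 (limma adjusted p = 0.031, 0.10 without the block). Its Control libraries were at 60.0, 58.2 and 66.0 TPM.

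Gng2, a gamma subunit of heterotrimeric G proteins, was at 7.19, 8.79 and 8.96 TPM with LDL, 15.0, 15.4 and 17.1 TPM with oxLDL and 13.6, 14.6 and 15.0 TPM in Control. The LDL libraries were the low group, and Gng2 rose by 0.86 (limma adjusted p = 0.010). Rab3ip, an activator of the vesicle transport protein Rab8, was at 49.25, 54.05 and 51.5 TPM with LDL and 72.7, 74.0 and 74.15 TPM with oxLDL and rose by 0.51 (limma adjusted p = 0.028). Its groups were far apart for their spread, and Control was at 65.1, 68.5 and 75.4 TPM. Nbl1, a secreted antagonist of bone morphogenetic proteins, was at 43.4, 27.6 and 28.9 TPM with LDL and 59.8, 36.0 and 44.4 TPM with oxLDL and rose by 0.48 (limma adjusted p = 0.0497, 1.0 without the block). Nbl1 overlapped between the groups, with replicate 1 high in both, and like Rab3ip it was named after its values were seen. Bmp4, 1 of these morphogenetic proteins, was at 84.3, 103 and 95.8 TPM with LDL and 118, 155 and 139 TPM with oxLDL. Its difference of 0.53 did not pass (limma adjusted p = 0.067), and Control was at 118, 136 and 163 TPM. The last called gene that fell, Gm26809, a clone-named long noncoding RNA, is only counted.

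Snora61 and AC165157.5 were listed at 0 in every library outside oxLDL. Both reached the minimum mean TPM through the oxLDL libraries alone, so they could enter the test only as genes that differ. They are among the 16 counted as rises, and no p is given for them as support. Snora61, a small nucleolar RNA of the H/ACA class, which guides the change of uridine to pseudouridine in other RNAs, was listed at 0 in all 3 LDL and all 3 Control libraries and at 10.1, 15.8 and 49.9 TPM with oxLDL. Its fitted difference depends on the pseudocount, so no fold is given, and with 6 libraries at 0 the spread of its fit comes from the oxLDL libraries alone. The clone-named AC165157.5, named after its values were seen and not matched by symbol in GENCODE M21, was listed at 0 in the same 6 libraries and at 10.1, 23.5 and 16.4 TPM with oxLDL, and the same limits hold for it. These were the 2 tested genes above 0 in all 3 libraries of one treatment and at 0 in the other 6, and there were 0 such genes for LDL or Control. Of 55 tested small nucleolar RNAs 54 were at 0 in some library, against 1.47% of all tested genes. Whether a listed 0 is absence or a failed estimate was not tested. Snhg12, the host transcript that contains Snora61 on the same strand, was at 34.4, 45.9 and 39.6 TPM with LDL and 34.3, 40.5 and 46.1 TPM with oxLDL, with full overlap. The sequence of Snora61 is shown because the whole of it lies within Snhg12, so that reads of the unspliced host transcript would also cover it. The part of such reads in its values was not tested. It is 130 nt long, chr4:132310240-132310369, + strand, from GENCODE M21 (GRCm38), with the ACA box 3 bases before its end in capitals.
Snora61: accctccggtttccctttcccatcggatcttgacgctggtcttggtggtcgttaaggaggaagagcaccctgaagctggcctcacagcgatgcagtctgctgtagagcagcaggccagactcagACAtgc

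Several gene groups that oxidised lipids are known to act on elsewhere gave no call, which is close to the share of 0.259% called over all genes tested. Of 32 tested NRF2 targets, the genes of the antioxidant response, 0 were called and the median was -0.03, while the medians against Control were 0.54 with LDL and 0.53 with oxLDL, side by side. The pair medians were 0.14, 0.12 and -0.31, and the median took the other sign, 0.12, without all libraries of replicate 3. Nqo1, a quinone reductase, was at 427, 458 and 555 TPM with LDL, 478, 498 and 456 TPM with oxLDL and 207, 215 and 306 TPM in Control. Both lipoprotein groups lay above all Control libraries and overlapped each other, and the 95% interval of their difference ran from -0.28 to 0.28. Hmox1, the haem oxygenase, was at 296, 318 and 455 TPM with LDL and 320.0, 218 and 271 TPM with oxLDL (difference -0.39, limma adjusted p = 0.58). Its groups overlapped, with LDL replicate 3 the highest, and Control was at 159, 124 and 131 TPM.

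Scavenger receptors for modified lipoproteins had 13 tested members, 0 calls and a median of -0.11, with pair medians of -0.29, -0.41 and 0.08. Olr1, the endothelial oxLDL receptor LOX-1, was at 16.8, 21 and 19.6 TPM with LDL and 9.25, 4.33 and 8.86 TPM with oxLDL. Its Control libraries were at 7.19, 7.10 and 2.72 TPM. Olr1 was lower in every oxLDL library than in the LDL libraries, but with uneven pairs (difference -1.30, 95% interval -2.13 to -0.48, limma adjusted p = 0.31). Cd36, a fatty acid and oxLDL receptor, was at 31.5, 21.6 and 57.9 TPM with LDL and 25.4, 8.41 and 40.6 TPM with oxLDL, with overlapping groups (difference -0.69, limma adjusted p = 0.34). Scarb2, a lysosomal membrane protein, was at 217, 215 and 231 TPM with LDL and 136, 108 and 169 TPM with oxLDL. Its groups were separate (difference -0.70, limma adjusted p = 0.17). In Control Cd36 was at 13.1, 9.95 and 31.8 TPM and Scarb2 at 153, 145 and 123 TPM. Macrophages also express several of these receptors, and macrophage and leukocyte markers were therefore read in the same libraries. All 18 tested markers had a lower mean log2 level with oxLDL (median -0.25, 0 called), yet 0 of them were lower in all 3 pairs, and the pair medians were -0.45, -0.77 and 0.41. Without oxLDL replicate 2 the median had the other sign, at 0.09. Their summed level was 310 to 966 TPM with LDL and 141 to 1034 TPM with oxLDL. Among the defining markers, Ptprc, the leukocyte antigen CD45, was at 2.51, 1.07 and 2.75 TPM with LDL and 1.68, 0.50 and 3.51 TPM with oxLDL. The part of these markers in the results was not tested, and in bulk RNA fewer cells of a type and less RNA per cell cannot be told apart.

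Contractile and myofibroblast genes had 0 calls among 22 tested, 13 higher in all 3 pairs and a median of 0.11. For this and the lists below, 0.259% of all genes tested were called, and 16.6% were higher and 14.9% lower in all 3 pairs. Acta2, smooth muscle actin, was at 605, 642 and 519 TPM with LDL and 677, 744 and 782 TPM with oxLDL (difference 0.32, limma adjusted p = 0.33). Tagln, an actin-binding protein of smooth muscle, was at 596, 618 and 466 TPM with LDL and 729.9, 709.6 and 621 TPM with oxLDL (difference 0.30, limma adjusted p = 0.16). In both genes every oxLDL library lay above every LDL library, and the Control libraries were at 725, 928 and 842 TPM for Acta2 and 701, 745 and 664 TPM for Tagln. Of 25 tested osteogenic factors and calcification inhibitors 0 were called, with a median of -0.11, and Runx2, the osteoblast transcription factor, was at 3.24, 3.12 and 3.78 TPM with LDL and 3.66, 3.09 and 4.75 TPM with oxLDL (limma adjusted p = 0.88). Glycolysis and hypoxia genes had 0 calls among 31, with 19 lower in all 3 pairs and a median of -0.12. Cell cycle genes had 0 calls among 44, with 16 higher in all 3 pairs and a median of 0.08. Immediate early genes had 0 calls among 27 (median 0.14), p53 targets 0 among 26 (median 0.08), lysosome and autophagy genes 0 among 34 (median -0.06) and endoplasmic reticulum chaperones 0 among 21 (median 0.00).

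**Figure D4:**
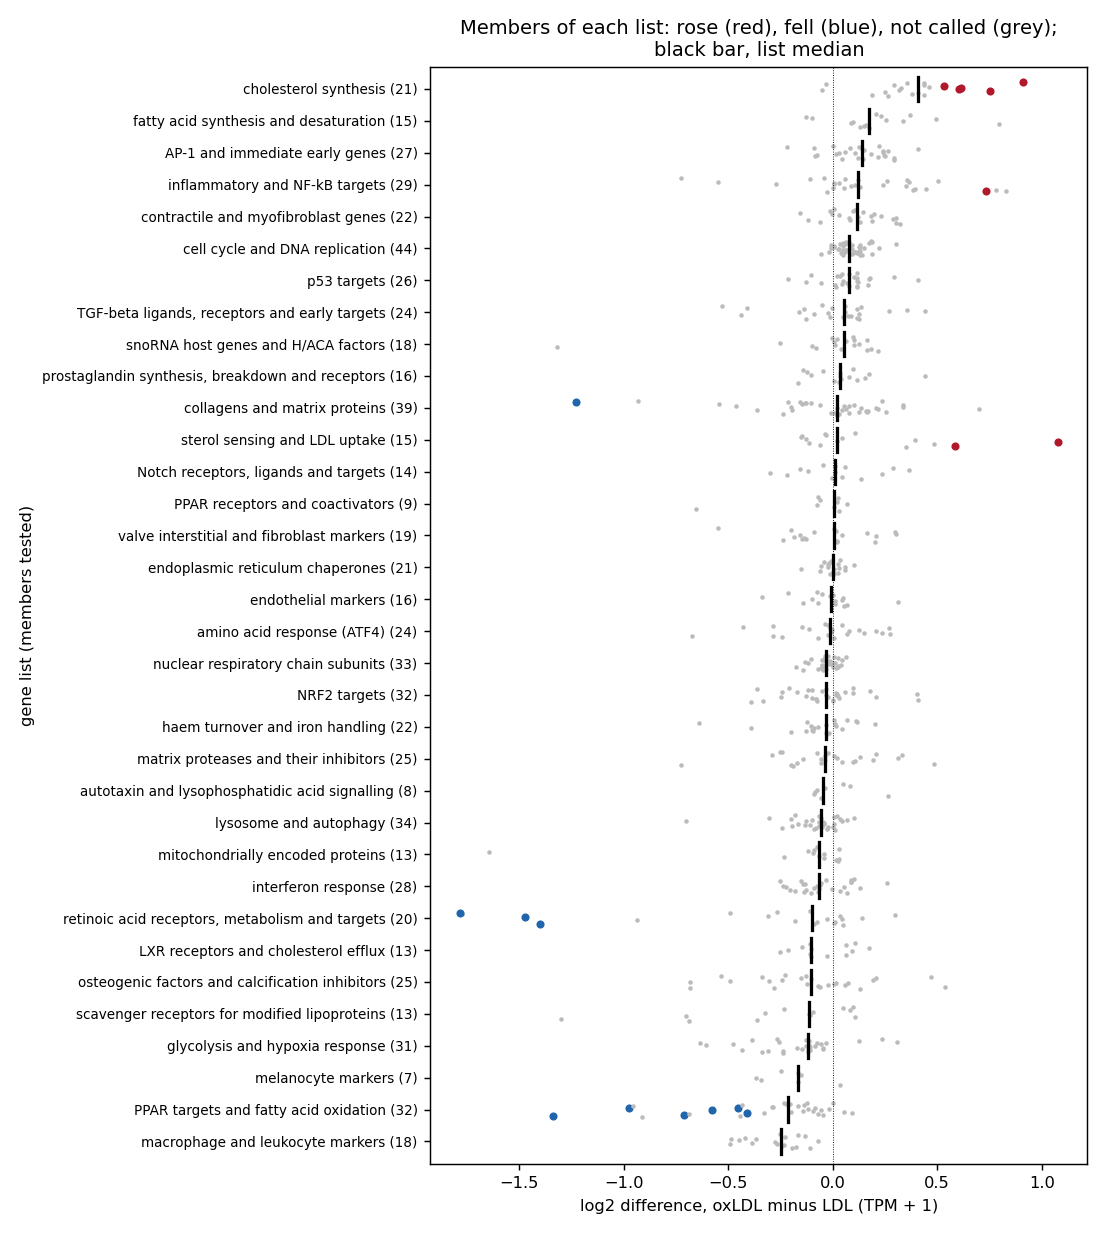
Log2 difference, oxLDL minus LDL, of each tested member of 34 gene lists, with the median as a black bar, lists ordered by median and the number tested in brackets. Cholesterol synthesis is at the top with a median of 0.41 and 5 red members, and the PPAR and retinoic acid lists near the bottom hold 6 and 3 blue members.

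All 19 listed markers of the labelled cell type were tested. The 19 valve interstitial and fibroblast markers summed to 20171 to 23381 TPM with LDL and 21585 to 23522 TPM with oxLDL, with 0 called. The abundant S100a4 and Vim carried most of that sum, at 7061 to 9838 and 4749 to 5976 TPM over the 6 libraries, and single markers were less even: Postn ran from 41.9 to 143 TPM, Thy1 from 185 to 507 TPM, Lum from 172 to 474 TPM and Fap from 1.26 to 5.34 TPM. Endothelial markers summed to 588 to 989 TPM over the 6 libraries, and cardiomyocyte and erythroid markers had 1 and 0 tested members. Cardiomyocyte markers summed to 16.2 to 44.2 TPM with LDL and 10.3 to 34.8 TPM with oxLDL. Most of that sum was Tnnt2, the 1 tested member, at 37.6, 13.6 and 11.75 TPM with LDL and 32.4, 17.7 and 9.59 TPM with oxLDL. Its groups overlapped (difference -0.04, limma adjusted p = 0.99). Myh6, the cardiac myosin heavy chain gene, averaged too little to be tested, at 0.67, 0.78 and 0.65 TPM with LDL and 0.23, 0 and 0.01 TPM with oxLDL. The untested markers were not alike: Myl2 overlapped, at 0.65, 0.80 and 0.18 TPM with LDL and 0.15, 0.76 and 0.23 TPM with oxLDL. Erythroid markers summed to 5.04 TPM in oxLDL replicate 3 and to at most 0.18 TPM in the other 5 libraries. Adipocyte markers summed to 33.0 to 47.5 TPM with LDL and 19.1 to 40.0 TPM with oxLDL, with 2 of 10 tested. Nearly all of that sum came from these 2, Lipe and Fabp4, and Fabp4 is also on the PPAR list. Fabp4 was at 33.2, 17.9 and 20.1 TPM with LDL and 31.7, 11.1 and 16.2 TPM with oxLDL, with overlapping groups. The defining adipocyte gene Adipoq was listed at 0 in all 3 LDL libraries and at 0, 0.12 and 0 TPM with oxLDL. Melanocyte markers summed to 15.2 to 41.6 TPM with LDL and 10.3 to 27.8 TPM with oxLDL, with 0 of 7 called. The part of these cell types in the results was not tested. Between 20985 and 21433 genes were above 0 in a library. TPM keeps no depth, so the reads behind each value are unknown.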

How the data were processed

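RNA sequencing of 9 libraries (3 treatments, n = 3 each) was analysed from the TPM values that the authors deposited. Per the submitters' processing notes, the tools were RSEM 1.3.1 and STAR (no version named) and the build was mm10. The annotation used is not given there. Per the labels, a kit that marks no strand made libraries from 50 ng total RNA after cDNA amplification, read in 100 bp pairs, so overlapping or near-identical genes may share reads. TPM sums to a fixed total and keeps no depth, so no counting interval is given, and 3 against 3 libraries cannot reach a permutation p below 0.1.

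Values were taken as log2(TPM + 1), with a pseudocount of 1, and 38315 genes averaging under 1 TPM were left out. limma 3.58.1 under R 4.3.3, with a prior that follows the mean level and two-sided tests, fitted 3 treatments with a block for the replicate number, leaving 4 residual degrees of freedom, and was tested on simulated data. Libraries sharing a replicate number deviated together: the correlation of their deviations was 0.172 to 0.497 in 9 pairs, against -0.309 to 0.13 in the 18 pairs of unlike number. The highest of these, 0.472 to 0.497, were the pairs of replicate 1. Elsewhere the gap was narrow, with 0.172 for Control 2 and oxLDL 2 against 0.13 for oxLDL 2 and Control 3. Deviations are from means of 3 libraries, so higher values within a number force lower ones between numbers. The libraries were paired by the numbers in the sample titles, although no label names a shared culture.

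Members, tests and the 37 gene lists were chosen with earlier results of these data known. Genes were named where they were among the 12 largest called rises or falls, led a list, were nearest to a call, or were 1 of 20 set genes. Some genes that this selects are counted but not reported here. Positions are from GENCODE M21 (91.9% of symbols matched) and promoters from RefSeq.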

Additional observations from a re-analysis of the deposited data

How the results depend on the processing

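The 35 calls depended on the design and on single libraries. Without the replicate block 5 genes rose and 9 fell, with the 6 LDL and oxLDL libraries alone 3 and 4, with no filter on low values 2 and 3, and with a prior without a trend 4 and 4. With a pseudocount of 5 the rises numbered 8. When the test was limited to protein-coding genes, which was added after the data had been seen, 22 rose and 33 fell. Fits without 1 library, or without all libraries of a replicate number, gave 2 to 16 rises and 1 to 27 falls. Other pseudocounts, filters and scalings stayed within 1.5 times of 16 and 19. Over the named genes and settings 20 differences took the other sign, all in the 5 genes named next. Nqo1 was -0.0124 under quantile normalization, and with libraries left out the range was -0.0923 to 0.177 for Nqo1, -0.0351 to 0.122 for Abca1, -0.0199 to 0.0806 for Ptgs2, -0.374 to 0.300 for Il6 and -0.0890 to 0.106 for Snhg12. The medians of the cholesterol synthesis and PPAR lists ran from 0.31 to 0.45 and from -0.26 to -0.15 over all settings. Of 34 list medians 18 took the other sign in some setting, among them interferon response (-0.33 to 0.27), macrophage markers (-0.59 to 0.09), NRF2 targets (-0.14 to 0.12) and LXR genes (-0.14 to 0.03), while scavenger receptors ran from -0.36 to -0.04. The causes were not tested, and read depth is unknown.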
